A study of Homo sapiens with 4 samples.

Results

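Mucins are very large O-glycosylated proteins that either span the membrane of epithelial cells or are secreted to form mucus gel, and trefoil factors are small secreted peptides that are released together with mucus and help to repair the epithelium. In the stomach, surface (pit) cells make MUC5AC with TFF1, and mucous neck and gland cells make MUC6 with TFF2, whereas intestinal goblet cells make MUC2 with TFF3. The 9 genes MUC1, MUC13, MUC2, MUC5AC, MUC5B, MUC6, TFF1, TFF2 and TFF3 were chosen by name in a gene expression table of AGS cells, a human gastric cancer cell line, to describe the gastric or intestinal secretory state of these cells and to compare cells with and without knockdown of MFAP2, a microfibril protein of the extracellular matrix. Of the 47251 genes in the table, 8 of these 9 were found by their name, and MUC2, whose name is blank in the table, was found by its gene identifier.

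The study made RNA-seq libraries from AGS cells that stably carried an MFAP2 short hairpin RNA from a lentivirus (sh-MFAP2, 2 libraries) and from AGS cells with a scrambled control hairpin (control, 2 libraries). Both groups were infected, selected for the lentivirus with an antibiotic and grown in the same medium with serum, and the sh-MFAP2 libraries share 1 hairpin sequence. No source used here says that the 2 libraries of a group came from separate cultures, so the p-values measure only the spread between these libraries, which may be technical. Levels are in FPKM, which is fragments per kilobase, scaled to the mapped fragments of the library, so that levels of different genes can be set side by side. The gene values of MUC1 and MUC13 imply lengths of 4717 and 3499 bases, longer than any of their listed transcripts. Gene and transcript values of these genes are therefore not on the same scale, and a close order between genes depends on the lengths used. Fold changes and tests are on the log2(FPKM + 1) scale, which understates the change of genes with low levels.

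MFAP2 itself had no signal with the MFAP2 hairpin, where both values are 0, and was at 0.0116 and 0.0138 FPKM in the control libraries. These levels are too low to check the labels of the groups, and no fold is given. The epithelial keratins KRT8, KRT18 and KRT19 were between 217 and 803 FPKM in every library, while 8 of 9 markers of blood, endothelial and connective tissue cells did not exceed 0.0511 FPKM in any library, with CD14 the highest of them. The exception was the collagen gene COL1A1, at 2.27 and 2.07 FPKM with the MFAP2 hairpin and 4.36 and 4.92 FPKM with the control hairpin. Among the 9873 genes tested, 203 had a lowest value below 10% of a highest value of at least 5 FPKM. These include genes that differed inside a group, such as the claudin gene CLDN4 at 47.1 and 0.0151 FPKM with the MFAP2 hairpin. CLDN4, also an epithelial marker, was at 0.291 and 0.551 FPKM with the control hairpin. The low values of the table lie on steps that fit 54700000 to 74900000 fragments per library, a depth inferred from these values, so that counting intervals are not given for the FPKM values.

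Of the 9 genes, 3 were clearly expressed in AGS cells, namely both membrane mucins and TFF1, and 6 were near 0. MUC13 had the highest mean over the 4 libraries, at 14.4 FPKM, followed by MUC1 at 10.6 FPKM and TFF1 at 3.82 FPKM. The ranges of MUC13 and MUC1 overlapped, the range of TFF1 lay below that of MUC1, and the range of TFF2, the next in order, lay below that of TFF1. The order went on with TFF2, TFF3, MUC5AC, MUC5B, MUC6 and MUC2, and among these every gene overlapped in range with its neighbour. Of all genes tested, 26.4% had a mean at or above that of MUC13 and 67.0% had one at or above that of TFF1.

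**Figure D1:**
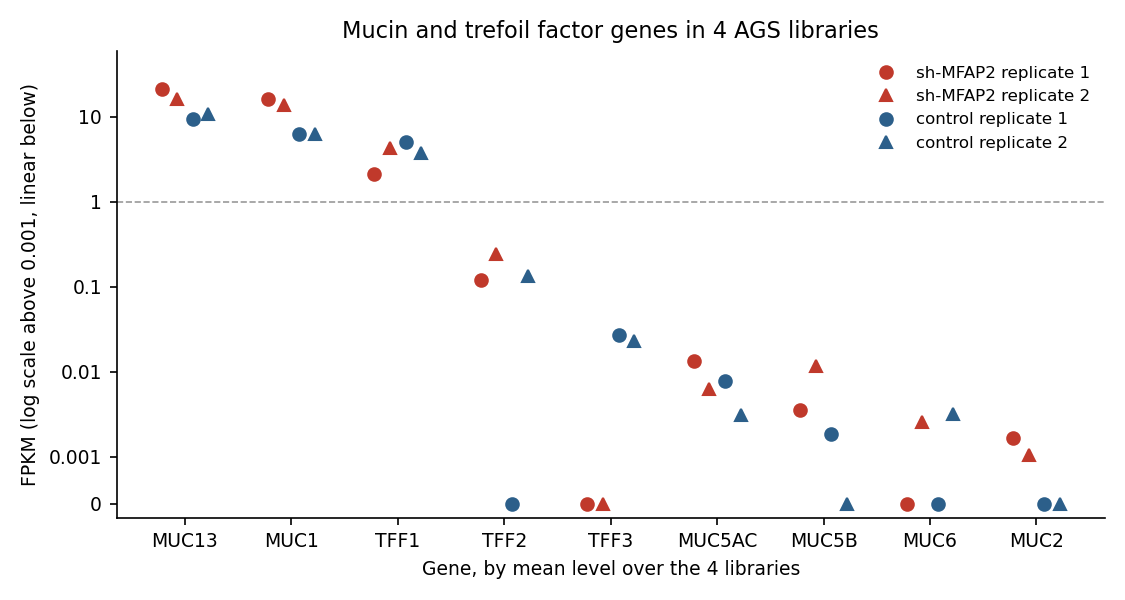
Level of each of the 9 genes in FPKM (y axis, logarithmic above 0.001 and linear below it) in the 4 libraries, with genes on the x axis in the order of their mean; red marks sh-MFAP2, blue marks control, circles replicate 1 and triangles replicate 2, and the dashed line is the 1 FPKM mean needed for testing. MUC13, MUC1 and TFF1 lie above the line in every library and the other 6 genes below it in every library.

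The 2 membrane mucins made up most of the signal. Summed over the 9 genes, they held 94.3% and 86.9% of the FPKM with the MFAP2 hairpin and 75.4% and 81.2% in the control libraries. The 3 trefoil factors held 5.63% and 13.1% in the sh-MFAP2 libraries and 24.6% and 18.8% in the control libraries, most of it TFF1. The 4 gel-forming mucins, which carry the bulk of mucus in a normal stomach and gut, held between 0.0296% and 0.0626% in the 4 libraries.

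MUC1 is a membrane mucin of glandular epithelia, whose extracellular domain consists largely of a tandem repeat rich in serine, threonine and proline, and whose cytoplasmic tail takes part in signalling. The gene (ENSG00000185499) lies on the minus strand at chr1:155185824-155192916 of GRCh38. Its levels were 16.2 and 13.8 FPKM with the MFAP2 hairpin and 6.26 and 6.25 FPKM with the control hairpin. Both sh-MFAP2 libraries lay above both controls, and the 2 controls were nearly identical.

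The group means of MUC1 were 14.97 ± 1.68 FPKM in sh-MFAP2 and 6.25 ± 0.00597 FPKM in control (SD, n = 2), a ratio of 2.39. The log2 fold change was 1.14 with an SE of 0.125 and a 95% interval of 0.78 to 1.49. In the limma fit across all 9873 genes the unadjusted p was 0.00105, which placed MUC1 at rank 71, and the adjusted p was 0.145. MUC1 therefore did not pass the test, for which a gene needed p under 0.01 and adjusted p under 0.05. A log2 fold change at least as high was found in 121 tested genes, of which 79 had both sh-MFAP2 libraries above both controls. Of the 121, 72 had a lowest value below 10% of a highest value of at least 5 FPKM, which MUC1 did not. In bulk RNA, more cells that express a gene and more RNA per cell cannot be told apart.

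MUC13 is a membrane mucin of the apical surface of gastric and intestinal epithelium, with a shorter extracellular domain that holds epidermal growth factor-like modules. The gene (ENSG00000173702) lies on the minus strand at chr3:124905442-124953819. Its levels were 21.3 and 16.2 FPKM with the MFAP2 hairpin and 9.44 and 10.9 FPKM with the control hairpin. The groups did not overlap, with both sh-MFAP2 libraries above both controls.

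The group means of MUC13 were 18.7 ± 3.56 FPKM and 10.2 ± 1.00 FPKM (SD, n = 2), a ratio of 1.85. The log2 fold change was 0.81 (SE 0.179, 95% interval 0.30 to 1.32). MUC13 did not pass the test either, with an unadjusted p of 0.0120 at rank 347 and an adjusted p of 0.337 in the limma fit. By gene FPKM, MUC13 exceeded MUC1 in all 4 libraries, with ratios of 1.32 and 1.18 in sh-MFAP2 and of 1.51 and 1.74 in control. This order depends on the gene lengths used. In fragments inferred from the transcript values and depths, MUC1 was the higher in sh-MFAP2, at 4654 and 3560 against 4540 and 3106 for MUC13. In control MUC13 was the higher, at 1958 and 2846 against 1749 and 2208 for MUC1.

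TFF1, the trefoil peptide of gastric surface cells, has its gene (ENSG00000160182) on the minus strand at chr21:42362282-42366594. Its levels were 2.11 and 4.27 FPKM with the MFAP2 hairpin and 5.09 and 3.79 FPKM with the control hairpin. The groups overlapped, because sh-MFAP2 replicate 2 lay between the 2 controls, and the lowest value was that of sh-MFAP2 replicate 1. The means were 3.19 ± 1.53 FPKM and 4.44 ± 0.914 FPKM (SD, n = 2), a ratio of 0.719. The log2 fold change of -0.42 (SE 0.318, 95% interval -1.32 to 0.49) had a limma adjusted p of 0.598 and lay within the spread between replicates. It was -0.036 without sh-MFAP2 replicate 1 and -0.80 without sh-MFAP2 replicate 2. The ratio of MUC1 to TFF1 was 7.65 and 3.23 in the sh-MFAP2 libraries and 1.23 and 1.65 in the control libraries.

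**Figure D2:**
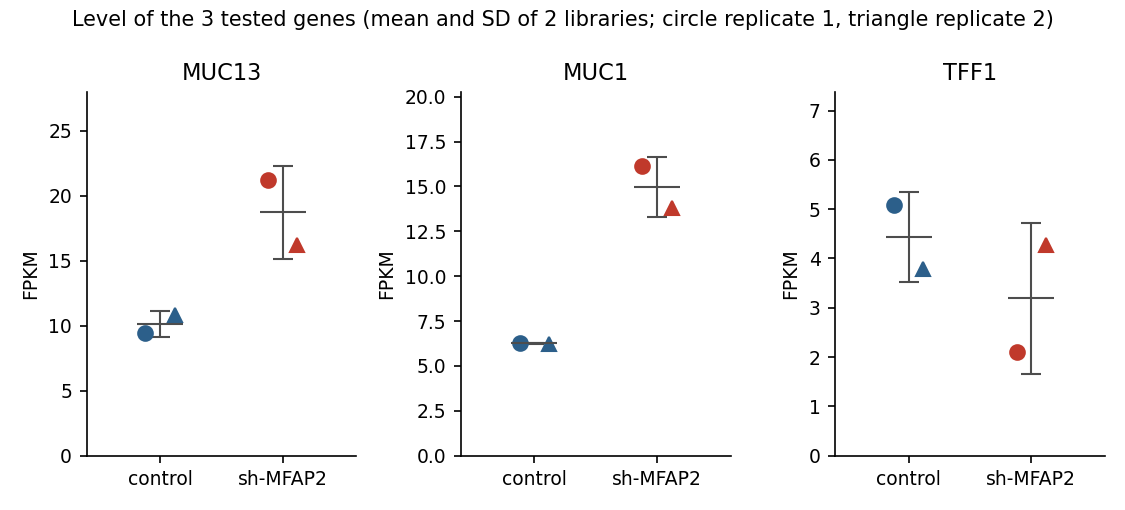
Level in FPKM (y axes, from 0, with a scale of their own for each gene) of MUC13, MUC1 and TFF1 in control and sh-MFAP2 libraries; points are libraries, with circles for replicate 1 and triangles for replicate 2, and bars give the mean and SD of 2 libraries. Both sh-MFAP2 libraries lie above both controls for MUC13 and MUC1, and the groups overlap for TFF1.

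In all, 3 of the 9 genes reached the mean of 1 FPKM that testing required, and none passed the limma test, while 2 had an unadjusted p under 0.05, MUC1 and MUC13. Over all genes tested, 0.152% passed with higher and 0.122% with lower levels in sh-MFAP2. An unadjusted p under 0.05 was reached by 3.89% of all genes with higher and by 8.41% with lower levels in sh-MFAP2. Groups that did not overlap were common, since 17.5% of all genes tested had both sh-MFAP2 libraries above both controls, as MUC1 and MUC13 did, and 31.4% had both below, as none of the 3 did. The median log2 fold change of the 3 genes was 0.81, beside -0.05 over all genes tested. With 2 libraries against 2, an exact two-sided permutation test of a single gene cannot go below p = 0.333, so none was used.

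The other 6 genes had a mean under 1 FPKM and were not tested. TFF2, the trefoil peptide of mucous neck cells (chr21:42346357-42351128, minus strand), was at 0.119 and 0.246 FPKM with the MFAP2 hairpin and 0 and 0.135 FPKM with the control hairpin. TFF3, the intestinal trefoil peptide (chr21:42311667-42315651, minus strand), was listed at 0 with the MFAP2 hairpin and at 0.0273 and 0.0229 FPKM with the control hairpin. From the transcript values and the inferred depths, the TFF3 values correspond to about 1.89 and 2.01 fragments, and those of TFF2 to at most 11.2 fragments in a library. A difference in TFF2 or TFF3 was not detectable at this depth. The 3 trefoil genes stand next to each other on chromosome 21, and TFF1 was the only one of them above 1 FPKM.

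The gel-forming mucins, which assemble through disulphide bonds into the mucus network, were at the edge of detection. MUC5AC, the mucin of gastric surface mucus (chr11:1157953-1201138, plus strand), was at 0.0132 and 0.00630 FPKM with the MFAP2 hairpin and 0.00776 and 0.00306 FPKM with the control hairpin, or 4.00 to 14.1 inferred fragments. MUC5B, better known from airway and salivary mucus (chr11:1223066-1262172, plus strand), was at 0.00354 and 0.0117 FPKM with the MFAP2 hairpin and 0.00182 and 0 FPKM with the control hairpin. The groups overlapped for MUC5AC, whereas both sh-MFAP2 libraries lay above both controls for MUC5B, at 11.9 inferred fragments or fewer in any library. Of the 9 genes, 4 had both sh-MFAP2 libraries above both controls, namely MUC1, MUC13, MUC5B and MUC2, and 1, TFF3, had both below. Over all genes above 0 in at least 1 library, the shares were 16.0% above and 21.2% below. MUC5B, MUC2 and TFF3 were too low to test.

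MUC6, the mucin of gastric gland mucus (chr11:1012821-1036706, minus strand), was listed at 0 in sh-MFAP2 replicate 1 and control replicate 1 and at 0.00256 and 0.00318 FPKM in the other 2 libraries. MUC2, the mucin of intestinal goblet cells (chr11:1074875-1110511, plus strand), was at 0.00166 and 0.00103 FPKM with the MFAP2 hairpin and listed at 0 in both controls, and no transcript of it is listed. The 4 gel-forming mucin genes form a cluster on chromosome 11, and none of them exceeded 0.0132 FPKM in any library. In a fit with no filter on low values, the limma adjusted p of the 6 low genes lay between 0.486 and 0.991.

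The MUC1 values can be followed to its transcripts, of which the table lists 26, all with the length they have in GENCODE 29. The longest, ENST00000611571 with 4170 bases and 11 exons, is the only one with more than 1 exact copy of the tandem repeat unit. The most frequent repeat unit of 60 bases is shown because this transcript alone holds more than 1 exact copy of it, with capitals at the 36 bases that were the same in every copy counted.
MUC1 repeat unit: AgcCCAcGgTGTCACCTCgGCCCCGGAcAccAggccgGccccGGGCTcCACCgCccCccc
The unit has a GC content of 81.7%. ENST00000611571 holds 40 copies with at most 6 mismatches to it, 19 of them exact, between bases 414 and 2954, which is 60.9% of its length. Of the 26 listed transcripts, 23 hold no exact copy, and ENST00000612778 and ENST00000620103 hold 1 each. Copies with mismatches were sought in ENST00000611571 alone, so such copies in the other transcripts were not counted. Reads inside such an array match many places in the same transcript, and how the authors' program assigned them is not given in the sources used here.

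ENST00000611571 was at 16.7 and 7.53 FPKM with the MFAP2 hairpin and 6.01 and 5.87 FPKM with the control hairpin. It held 91.2% of the MUC1 signal, counted as FPKM times length, in sh-MFAP2 replicate 1, and 84.8% and 83.1% in the controls, but 48.3% in sh-MFAP2 replicate 2. In that library alone the shorter ENST00000620103 (1811 bases) was at 6.60 FPKM, against 0.0130 to 0.144 FPKM in the other 3 libraries, and held 18.4% of the signal. ENST00000612778 (1836 bases) was at 5.29 FPKM there, against 0.160 to 0.482 FPKM elsewhere, and held 14.9%. The 2 sh-MFAP2 libraries thus had like levels of MUC1 as a gene but a different makeup of listed transcripts.

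Tested as a transcript in a fit over all transcripts, an alternative added after the data were seen, ENST00000611571 had a log2 fold change of 0.82 (SE 0.418) with an unadjusted p of 0.126 and an adjusted p of 0.694 by limma, although both sh-MFAP2 libraries lay above both controls. The sum of the listed MUC1 transcripts gave a log2 fold change of 1.22 with an adjusted p of 0.266. The annotated span of MUC1, introns included, also overlaps by 1449 bases with that of the gene AL713999.1 on the same strand. AL713999.1 was between 0.0371 and 0.412 FPKM and highest in sh-MFAP2 replicate 2. The overlap of their exons was not computed, and fragments from any shared exon bases cannot be assigned with certainty.

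**Figure D3:**
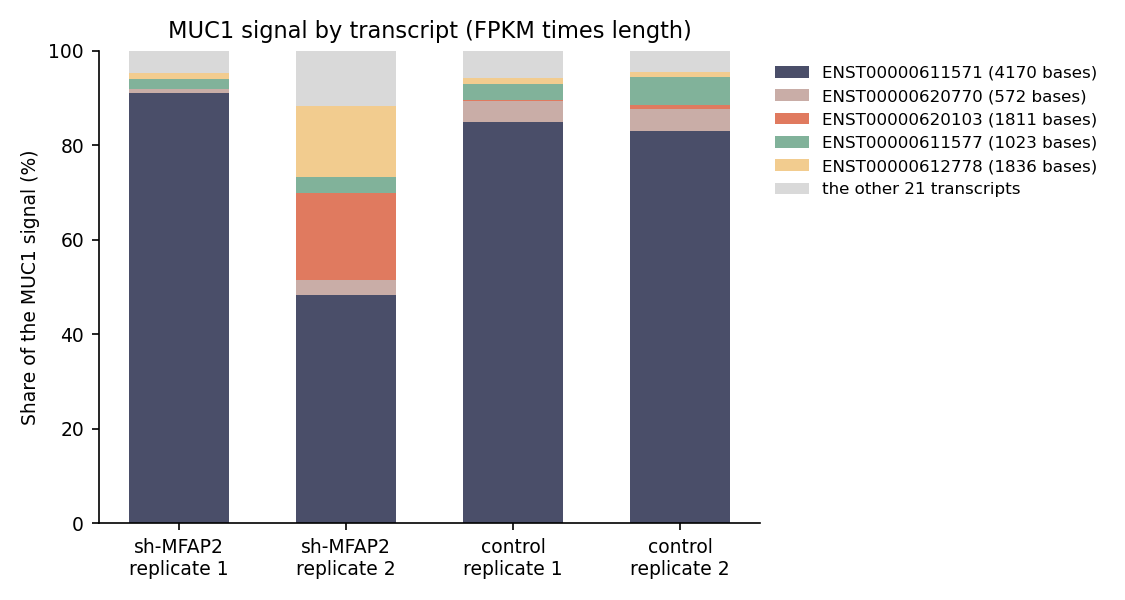
Share of the MUC1 signal (y axis, percent of FPKM times length summed over the 26 listed transcripts) held by each of the 5 transcripts that averaged 1 FPKM or more and by the other 21 together, in the 4 libraries (x axis). The longest transcript holds 83.1% to 91.2% in 3 libraries and 48.3% in sh-MFAP2 replicate 2.

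MUC13 had 1 prevailing transcript. ENST00000616727, with 2879 bases and 12 exons, held between 99.87% and 99.95% of its signal in each library. Tested as a transcript, it had a log2 fold change of 0.83 with an adjusted p of 0.586 by limma. For TFF1 the table lists the single transcript ENST00000291527, with 551 bases and 3 exons, whose values are those of the gene.

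Promoter sequences from RefSeq (GRCh38.p14) were available for 3 of the 9 genes, and those of MUC1 and MUC13 are shown because these were the 2 tested genes with groups that did not overlap. Each line gives the 120 bases before the transcript start, which is also the start of the main GENCODE transcript, with capitals for TATAAA and GGGCGG, the letters of a TATA box and of a GC box, sought on both strands with overlaps allowed.
MUC1 promoter (chr1:155192916-155193035, minus strand): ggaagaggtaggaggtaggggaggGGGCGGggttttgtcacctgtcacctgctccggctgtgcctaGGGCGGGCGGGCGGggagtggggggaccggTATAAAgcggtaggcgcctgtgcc
MUC13 promoter (chr3:124934752-124934871, minus strand): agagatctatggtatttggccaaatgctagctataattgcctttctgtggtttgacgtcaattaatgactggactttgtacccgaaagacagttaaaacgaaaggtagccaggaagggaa
In the 250 bases before the start, MUC1 held TATAAA once, 24 bases before the start, and GGGCGG 4 times, while MUC13 held neither. Of 35116 RefSeq promoters, 10.7% hold TATAAA and 42.6% hold GGGCGG in that window. The window had a GC content of 66.0% for MUC1 and of 41.6% for MUC13, beside a median of 58%, and 15.7% of promoters had a lower GC content than that of MUC13. The promoters of MUC1 and MUC13 thus differed in each of these features, and a match of letters is a description of the sequence, not of a bound site.

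The genes whose values over the 4 libraries were most like those of MUC1, by the root mean square difference of centred log2(FPKM + 1) values, were SYS1, a Golgi membrane protein gene, at 0.0535, POLR2K, an RNA polymerase subunit gene, at 0.0554, and GDAP1, a mitochondrial protein gene, at 0.0688. MUC13 stood at place 32 in this order with 0.182, and TFF1 at place 8839 with 0.857. The order rests on 4 libraries of 2 groups, and says nothing of shared control.

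None of the genes in the lists of related genes passed the limma test, so that the values below describe levels and counts. Among 15 other mucin genes, 11 were above 0 in any library and 2 were tested. CD164, the mucin-like membrane protein also called endolyn, was at 9.69 and 13.9 FPKM with the MFAP2 hairpin and 16.2 and 16.3 FPKM with the control hairpin (log2 fold change -0.45, adjusted p = 0.444). MUC20, a membrane mucin, was between 0.962 and 1.93 FPKM, with overlapping groups. Of the 11 other mucins above 0, 3 had both sh-MFAP2 libraries above both controls and 1, CD164, had both below. The 3 with higher levels were all too low to test. They were OVGP1, the oviduct mucin, at 0.395 and 0.452 FPKM against 0.341 and 0.347 FPKM, MUCL1 at 0.382 and 0.333 FPKM against 0.221 and 0.302 FPKM, and MUC17, which did not exceed 0.0122 FPKM. Over all genes above 0 in at least 1 library, 16.0% had both sh-MFAP2 libraries above both controls and 21.2% had both below.

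Of 33 enzymes of mucin O-glycosylation, 30 were above 0 and 19 were tested, with a median log2 fold change of -0.05 beside the same value over all genes. The most abundant was C1GALT1, which builds the core 1 structure, at 33.3 and 37.6 FPKM with the MFAP2 hairpin and 21.6 and 42.5 FPKM with the control hairpin. GALNT2, which starts O-glycan chains, was at 10.6 and 18.0 FPKM with the MFAP2 hairpin and 22.1 and 24.0 FPKM with the control hairpin, with sh-MFAP2 below control and an adjusted p of 0.422 by limma. FUT1, a fucosyltransferase of blood group H, was between 13.1 and 18.0 FPKM with overlapping groups. GALNT5, another enzyme of the first step, was the only enzyme of the list with an unadjusted p under 0.05, at 2.66 and 2.09 FPKM against 1.49 and 1.42 FPKM (log2 fold change 0.45, limma adjusted p = 0.394).

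Of 22 genes for folding, packaging and release of mucins, 13 were tested, with a median log2 fold change of -0.11, and 3 had an unadjusted p under 0.05. MARCKS, an actin-binding substrate of protein kinase C that takes part in mucin granule release, was at 7.49 and 6.46 FPKM with the MFAP2 hairpin and 19.9 and 18.4 FPKM with the control hairpin. Its log2 fold change of -1.34 was larger in size than that of MUC1, and its adjusted p was 0.119 by limma. XBP1, a transcription factor of the secretory stress response, was at 24.6 and 26.0 FPKM against 16.9 and 12.6 FPKM (log2 fold change 0.76, limma adjusted p = 0.346). SYTL2, of the vesicle docking machinery, was at 4.48 and 5.19 FPKM against 6.44 and 7.60 FPKM (log2 fold change -0.46, limma adjusted p = 0.394). The most abundant genes of the list were VAMP8, UNC13D and STX3, of the machinery that fuses granules with the membrane. All 3 had overlapping groups, and VAMP8 ranged from 24.2 to 59.2 FPKM with its lowest value in control replicate 2.

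**Figure D4:**
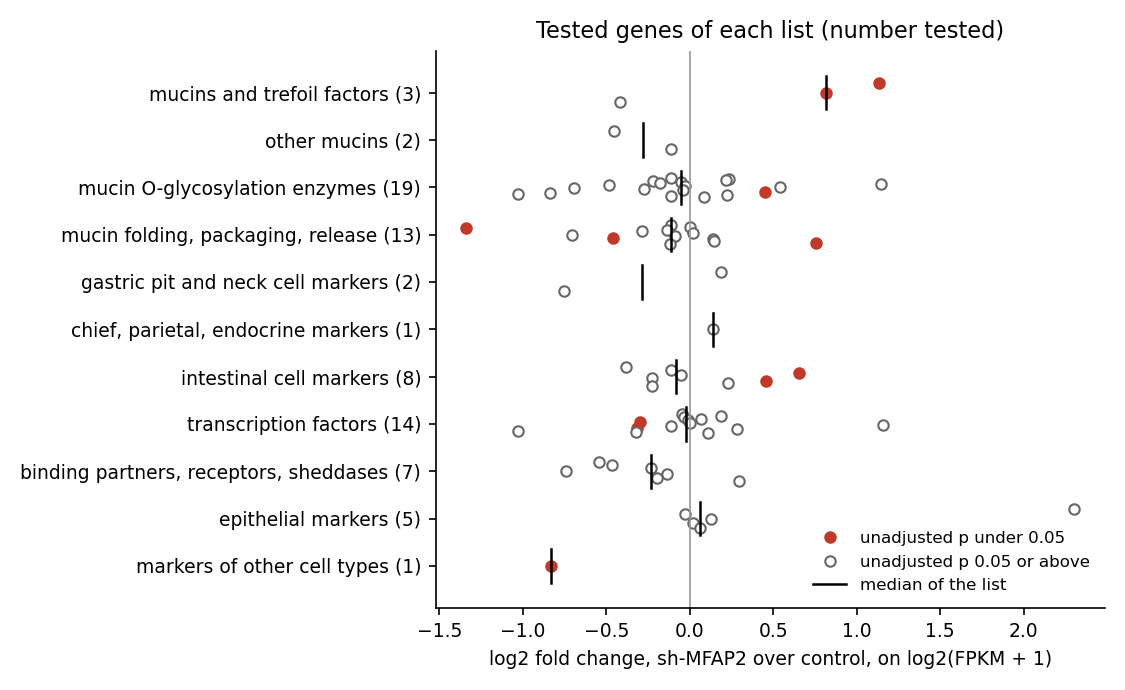
The log2 fold change of sh-MFAP2 over control on the log2(FPKM + 1) scale (x axis) for each tested gene of the mucins and trefoil factors and of 10 lists of related genes (y axis, with the number tested); filled red points had an unadjusted limma p under 0.05, open points did not, and black lines are list medians. No point passed the test; MUC1 at 1.14 and MUC13 at 0.81 lie at the right end of the first line and TFF1 at -0.42 on the other side of 0.

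The state of the cells, read from cell type markers, held some genes of both stomach and intestine. Most markers of either were too low to test. Of 11 markers of gastric pit and neck cells, all were above 0 in at least 1 library but only 2 were tested. CTSE, an aspartic protease of gastric surface cells, was at 129 and 131 FPKM with the MFAP2 hairpin and 164 and 295 FPKM with the control hairpin, with a limma adjusted p of 0.438. CTSE was the only one of the 11 with both sh-MFAP2 libraries below both controls, and 7 had both above, of which 6 were too low to test, beside the 16.0% of all genes above 0 given earlier. CAPN8, a stomach calpain, was at 1.27 and 1.48 FPKM against 1.11 and 1.06 FPKM (limma adjusted p = 0.523). ANXA10, an annexin, was at 0.5996 and 0.633 FPKM against 0.466 and 0.478 FPKM, and the other 5, VSIG1, CLDN18, PSCA, CAPN9 and SULT1C2, did not exceed 0.326 FPKM. The groups overlapped for GKN1, GKN2 and AQP5, which did not exceed 0.0286, 0.174 and 0.376 FPKM. Of 13 markers of chief, parietal and endocrine cells only the pepsinogen gene PGC was tested, at 0.997 to 1.46 FPKM, while GAST and GHRL, the hormone genes for gastrin and ghrelin, did not exceed 0.560 and 0.0572 FPKM.

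Of 20 intestinal markers, 15 were above 0 and 8 were tested. TSPAN8, a tetraspanin, was between 145 and 197 FPKM, the actin-bundling villin gene VIL1 between 36.3 and 44.2 FPKM, and the cadherin gene CDH17 between 25.3 and 43.1 FPKM. CDX2, a transcription factor of intestinal identity, was between 8.49 and 10.1 FPKM, while CDX1, SI, DEFA5, DEFA6 and MEP1A were listed at 0 in all 4 libraries. The 7 markers above 0 that were not tested did not exceed 0.471 FPKM. They were FABP1, FABP2, ALPI, OLFM4, GPA33, KRT20 and ISX. CEACAM5, an adhesion molecule, was at 2.32 and 2.09 FPKM with the MFAP2 hairpin and 0.946 and 1.12 FPKM with the control hairpin (log2 fold change 0.66, limma adjusted p = 0.294). REG4, a secreted lectin of goblet and endocrine cells, was at 23.6 and 28.7 FPKM against 19.9 and 17.5 FPKM (log2 fold change 0.46, limma adjusted p = 0.399). The median over the 8 genes was -0.08, close to that of all genes. High CTSE, VIL1 and CDH17 thus stood beside gel-forming mucins near 0.

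**Figure D5:**
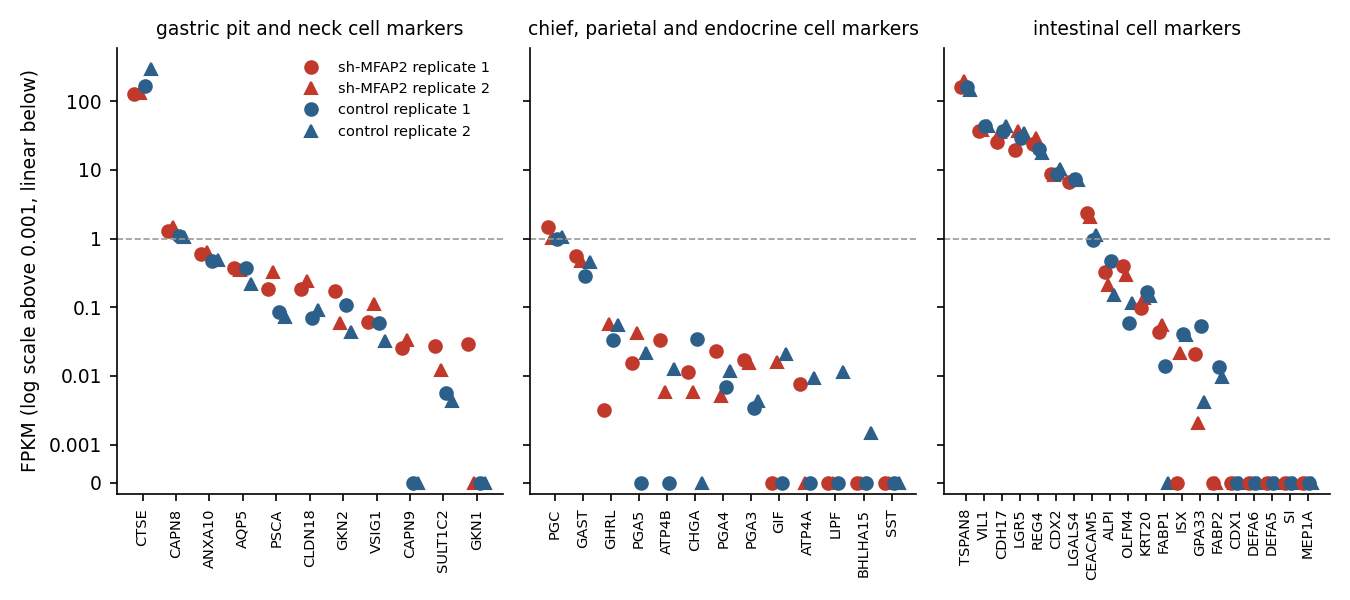
Level in FPKM (y axis, logarithmic above 0.001 and linear below it) of the markers of gastric pit and neck cells, of chief, parietal and endocrine cells and of intestinal cells (x axes, in the order of their mean) in the 4 libraries; red marks sh-MFAP2, blue control, and the dashed line is 1 FPKM. CTSE stands alone above 100 FPKM among the gastric markers, and TSPAN8 leads the 8 intestinal markers whose mean is above the line, of which CEACAM5 falls to 0.946 FPKM in control replicate 1.

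Of 21 transcription factors of gastric and secretory cells, 14 were tested, with a median log2 fold change of -0.02. KLF5 was at 10.5 and 40.0 FPKM with the MFAP2 hairpin and 41.8 and 45.1 FPKM with the control hairpin, with its lowest value in sh-MFAP2 replicate 1 and an adjusted p of 0.556 by limma. HES1, a target of Notch signalling, was at 35.1 and 57.1 FPKM against 12.9 and 29.4 FPKM (log2 fold change 1.16, limma adjusted p = 0.436), and FOXQ1, which is needed for MUC5AC in mouse stomach, was between 26.3 and 39.7 FPKM. HNF4A and GATA5 had an unadjusted p under 0.05 with lower levels in sh-MFAP2, at log2 fold changes of -0.32 and -0.29 and limma adjusted p of 0.398 each. SPDEF, a factor of goblet cell maturation, did not exceed 0.652 FPKM, and SOX2 was at 7.82 and 6.59 FPKM in 1 library of each group and listed at 0 in the other two.

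Of 13 binding partners, receptors and sheddases of mucins and trefoil factors, 7 were tested, with a median log2 fold change of -0.23. LGALS3, the galectin that binds MUC1 glycans, was at 113 and 122 FPKM with the MFAP2 hairpin and 100.4 and 90.9 FPKM with the control hairpin, with an adjusted p of 0.424 by limma. CTNNB1, or beta-catenin, which binds the MUC1 tail, was at 80.2 and 68.4 FPKM against 88.2 and 86.4 FPKM, with an adjusted p of 0.510. ICAM1, a ligand of MUC1, was between 10.8 and 15.1 FPKM with overlapping groups. Epithelial markers had a median log2 fold change of 0.06 over 5 tested genes, without CDH1, which was too low to test. COL1A1 was lower in both sh-MFAP2 libraries (log2 fold change -0.83, limma adjusted p = 0.221), with the other 8 markers of other cell types near 0 as given above, and their part in the values of MUC1 and MUC13 was not tested.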

How the data were processed

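The authors sequenced total RNA of 2 sh-MFAP2 and 2 control libraries of AGS cells and deposited a gene table and a transcript table. The deposited values behave as FPKM, although the tables do not name the unit; the build was hg38 according to the submitters' processing notes, and the aligner, quantification program and annotation are not given in the sources used here. Each library carries its group in its label, and no column was left unassigned. Genes averaging 1 FPKM or more over the 4 libraries were fitted on log2(FPKM + 1) with limma 3.58.1 in R 4.3.3 (trended variance prior), with Benjamini-Hochberg adjustment over all 9873 genes and a call at p under 0.01 and adjusted p under 0.05. The script was tested on simulated data. Depth was inferred from the steps of low values, of which 56.9% to 58.0% lay within 0.05 of a whole number of fragments, where 10% would without steps. The precision of levels near 0 is therefore unknown beyond the inferred fragments. Coordinates and transcripts came from GENCODE 29 (GRCh38) and promoters from RefSeq.

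The 9 genes and all lists were chosen with earlier results of these data known. Named genes were the 9 genes, the 3 most abundant genes of each list, up to 2 genes per list with the smallest unadjusted p under 0.05, and the 3 genes most like MUC1. SYTL2, MUCL1, MUC17, VSIG1, CLDN18, PSCA, CAPN9, SULT1C2, CDX1, CDX2, SPDEF, SOX2, CLDN4 and AL713999.1 were named after their values were seen. So were EPCAM, CDH1, GKN1, GKN2, AQP5, SI, DEFA5, DEFA6, MEP1A, FABP1, FABP2, ALPI, OLFM4, GPA33, KRT20 and ISX. Alternatives were other filters, pseudocounts, scalings and variance priors, a replicate block, summed or single transcripts, and leaving out each library. Comparisons of the authors were not used.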

Additional observations from a re-analysis of the deposited data

How the results depend on the processing

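MUC1, MUC13 and TFF1 kept their direction and none passed the limma test under any alternative run for them (TFF1 falls under a required mean of 5 FPKM), with log2 fold changes of 0.82 to 1.24, 0.63 to 1.00 and -0.80 to -0.036 and adjusted p of 0.137 or more. Under an unadjusted p under 0.05 in place of the test, 2 of the 9 genes passed, and the number was 3 with no filter (TFF3 added, lower in sh-MFAP2), 3 without sh-MFAP2 replicate 2 (TFF1 added) and 1 without control replicate 1 (MUC13 lost). Deviations of libraries with the same replicate number were hardly correlated across genes (-0.0572), which cannot tell whether these libraries were prepared together. With a replicate block the log2 fold changes of MUC1, MUC13 and TFF1 stayed at 1.14, 0.81 and -0.42, with limma adjusted p of 0.4997, 0.614 and 0.690. Over all genes 27 passed, against 6 when every gene above 0 was tested, 9 when a mean of 5 FPKM was required, 0 with the replicate block (722 at an unadjusted p under 0.05) and 0 without any 1 library (555 to 2166); a group then left with 1 library is assumed to vary like the other group.

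Of 108 list medians under alternatives, 21 moved by at least the SD between replicates and 7 changed sign. The sign changes were those of other mucins, pit and neck and other cell types with no filter, and of transcription factors under median-of-ratios scaling (0.026). Without sh-MFAP2 replicate 1, chief, parietal and endocrine (PGC alone, -0.0022), intestinal and epithelial markers also changed sign. With no filter, other mucins came to 0.0024, O-glycosylation to -0.0072, folding and packaging to -0.057, gastric pit and neck to 0.056, binding partners to -0.071 and markers of other cell types to 0.0012. With a mean of at least 5 FPKM, O-glycosylation came to -0.15, folding and packaging to -0.19 and pit and neck (CTSE alone) to -0.75. With a pseudocount of 0.1, folding and packaging came to -0.16 and other cell types (COL1A1 alone) to -1.06. Under quantile normalization O-glycosylation was -0.011 and folding and packaging -0.050, and under median-of-ratios scaling O-glycosylation was -0.0040, while the median of all genes went from -0.052 to -0.000087 and -0.011. Leaving out 1 library gave -0.073 to -0.023 for O-glycosylation, -0.100 to -0.044 for folding and packaging, -0.13 to 0.10 for intestinal markers, -0.11 to -0.031 for transcription factors and -0.0052 to 0.26 for epithelial markers. Other filters change which genes are in a list; these scalings shift all genes; the cause of the other moves was not tested.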

Other observations

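The 6 genes near 0 rest on at most 14.1 inferred fragments in a library, MUC2 apart, for which no fragments were inferred, so that a difference in them was not detectable at this depth. Groups of 2 libraries are too small to name an outlying library. The transcript values of MUC1 differed between the 2 sh-MFAP2 libraries, and with 2 libraries per group that difference was not tested.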
